A study of Mus musculus with 12 samples.

Results

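The transcripts that changed in microglial cells within 1 h of lipopolysaccharide (LPS) were followed over all 22180 genes that an expression array measured, by setting the 6 arrays of LPS-treated cells against 6 arrays of cells without LPS. The genes were all those with a feature (a set of probes) listed under 1 gene symbol, with the brightest feature standing for a gene that had several, out of 41345 features in all. BV2 is a single immortalised line of mouse microglia, labelled wild type here, and every culture contained 1.5% DMSO for 3 h. The 4 treatments, with 3 arrays each, were DMSO vehicle alone, LPS during the last 1 h after 2 h of vehicle, telmisartan alone, and telmisartan for 2 h before 1 h of LPS. The protocol also counts LPS among drugs given alone for 3 h, and the 1 h used here follows its statement on the LPS group and the sample titles. Telmisartan blocks the type 1 receptor for angiotensin II, and neither its dose nor that of LPS is given in the sources used here. The LPS change reported for a gene is the log2 difference between arrays with and without LPS, with telmisartan as a second term in the model, so that it averages over cells with and without the drug.

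LPS, a component of the outer membrane of Gram-negative bacteria, is sensed by Toll-like receptor 4 together with the co-receptors CD14 and MD-2. The adaptors MyD88 and TRIF then lead to NF-kB, MAP kinases and interferon regulatory factors, and primary response genes are transcribed without the need for new protein. In microglia, as in other macrophages, these first genes encode cytokines, chemokines and many of the proteins that later shut the response off.

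Array medians lay between 4.08 and 4.13 log2 units, and the first principal component, with 20.3% of the variance, was positive for all 6 LPS arrays and negative for the other 6. Among the telmisartan+LPS arrays, replicate 3 lay far from the others on component 2 (20.18) and replicate 1 on component 3 (17.31), so counts are also given without them. Of 12 measured microglia and macrophage markers 10 had a mean signal above 5, with group means of 8.64 to 8.71 over the list, against 0 of 6 astrocyte, 5 oligodendrocyte, 6 fibroblast, 5 endothelial and 6 lymphocyte markers and 1 of 6 neuronal markers. The microglia and macrophage markers not above 5 were P2ry12 (3.576) and Tmem119 (4.845), both genes of homeostatic microglia. None of the markers of any cell type passed the test for LPS. In RNA from whole cultures a change in the number of responding cells and a change in RNA per cell cannot be told apart. The labels call the samples of a group independent but tie no array to a culture of its own, so the p-values rest on the spread between arrays alone.

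LPS raised a small set of genes strongly and lowered a smaller set weakly. At a Benjamini-Hochberg adjusted p under 0.05 in limma, 113 genes rose (0.509% of those tested) and 23 fell (0.104%). Of the rises 4 were at least 8-fold, 6 at least 4-fold, 21 at least 2-fold and 50 at least 1.5-fold, which left 63 rises under 1.5-fold, and all 23 falls were under 1.5-fold. The median rise was 0.54 and the median fall -0.33 on the log2 scale, while the median over all genes was 0.0033. The smallest called rise was 0.23, for Nfe2l2, which encodes the antioxidant transcription factor NRF2 and whose call was lost in 14 of 22 alternative settings (other models, filters and scalings, and left-out arrays), and the smallest called fall was -0.23, for the RNA helicase gene Ddx55. At an unadjusted p under 0.05 there were 1440 higher and 1626 lower genes.

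The 6 arrays with LPS lay wholly above the 6 others for 100 of the 113 rises, where 0.794% of all genes did so, and wholly below them for 17 of the 23 falls, where 0.649% did so. These shares describe the called genes and add no evidence, since the same arrays made the calls. Within each drug state taken alone, the 3 LPS arrays were clear of the 3 others for 109 rises and 20 falls, criteria that 1.19% and 1.24% of all genes met. The split between rises and falls moved with the scaling. It was 94 to 101 when each array was centred on its median, 166 to 9 when arrays were centred on the median of genes with a mean signal of at least 5 (an alternative added after the data were seen), and 86 to 11 without the 2 telmisartan+LPS arrays that stood apart. With any 1 array left out, rises numbered 88 to 114 and falls 8 to 40.

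**Figure D1:**
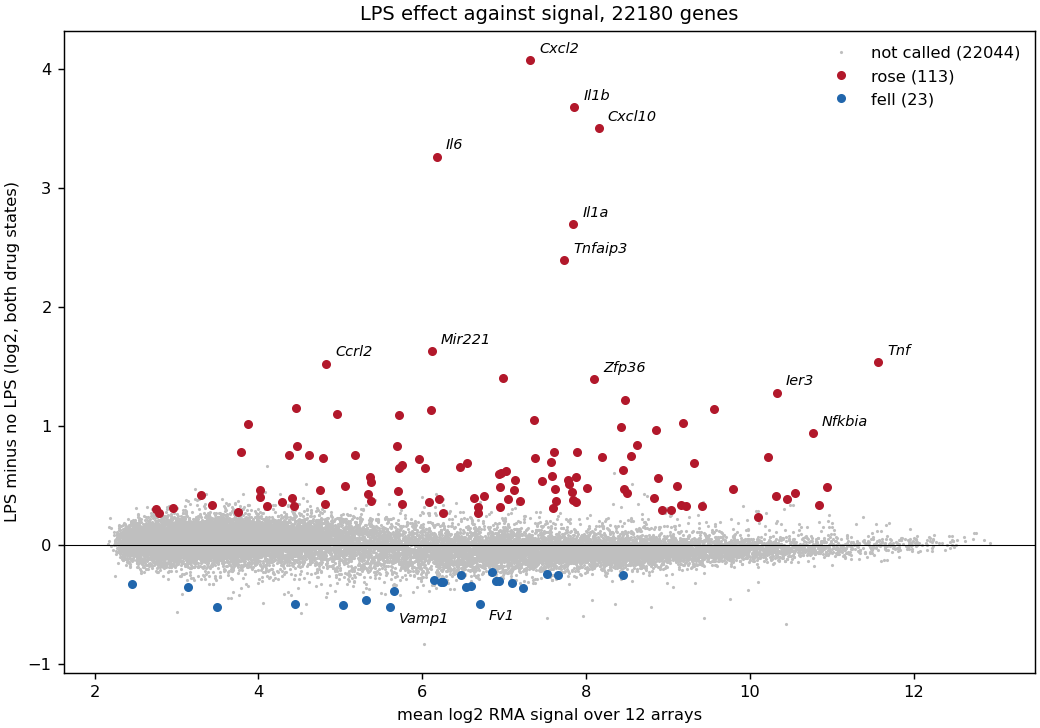
LPS change (log2, arrays with LPS minus arrays without, averaged over both drug states) against mean log2 signal over 12 arrays, 1 point per gene. The 113 rises (red) reach 4.07 for Cxcl2, the 23 falls (blue) all lie between -0.52 and -0.23, and grey points are genes that did not pass the test.

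Cytokine transcripts gave 3 of the 5 largest changes. Of 22 measured cytokine genes 8 rose and 0 fell, where 0.509% of all genes rose and 0.104% fell, with a list median of 0.21. The same shares of all genes apply to each list count below, and the lists were chosen with earlier results of these data known. Il1b encodes interleukin-1 beta, a fever-inducing cytokine that is cleaved by caspase-1 before release. Its log2 signal ran from 5.73 to 6.48 over the arrays without LPS (median 5.99) and from 8.54 to 10.36 over those with LPS (median 9.88). The groups were more than 2 units apart, and the lowest value with LPS belonged to replicate 3 of telmisartan+LPS. The change was 3.68 (SE 0.21), or 12.8-fold (limma, Benjamini-Hochberg adjusted p = 9.9e-08). Il1a, for the related interleukin-1 alpha, had signals of 6.38 to 6.63 without LPS and 8.27 to 9.64 with it, a change of 2.70 (SE 0.16).

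Il6 encodes interleukin-6, the cytokine that drives the acute phase response. Its signals were 4.60, 4.90 and 4.68 in DMSO, 8.45, 8.40 and 8.59 in LPS, 4.39, 4.14 and 4.55 in telmisartan, and 7.63, 7.41 and 6.36 in telmisartan+LPS. All 6 LPS arrays were above all others, and the 3 with the drug were below the 3 without it. The pooled change was 3.26 (SE 0.21), or 9.60-fold (limma, Benjamini-Hochberg adjusted p = 3.47e-07).

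Tnf, for tumour necrosis factor, gave 10.64 to 11.02 without LPS (median 10.82) and 12.17 to 12.50 with it (median 12.34). These ranges were narrow and far apart, and the change of 1.54 (SE 0.07) corresponds to 2.90-fold (limma, Benjamini-Hochberg adjusted p = 5.12e-09). The 3 colony-stimulating factors also rose. Csf2, which encodes the granulocyte-macrophage factor, changed by 1.01 (SE 0.12), although a second feature of that gene showed 0.07 and the mean of both gave 0.54. The Csf2 feature used was the brighter over all 12 arrays, LPS arrays included (3.875 against 3.778), and its mean without LPS was 3.37. Its LPS rise therefore entered the choice of feature, and both features were dim. Csf1, the macrophage growth factor, changed by 0.56 (SE 0.06), with an overlap of the pooled ranges of 8.39 to 8.84 and 8.81 to 9.42, although arrays with and without LPS were separate in each drug state. Csf3, the granulocyte factor, changed by 0.75 (SE 0.10), from 4.22, 4.23 and 4.24 in DMSO and 4.47, 4.27 and 4.02 in telmisartan to 5.30, 5.10 and 4.67 in LPS and 4.89, 5.06 and 4.95 in telmisartan+LPS. Lif, an interleukin-6 family member, was the eighth rise, at 0.45. Il12b, Il10 and Ifnb1, which encode a subunit of interleukin-12, an anti-inflammatory cytokine and an interferon, were at 0.09, 0.12 and 0.21 and did not pass the test.

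Of 21 chemokine genes 6 rose and 0 fell, with a list median of 0.10. Cxcl2, a chemokine for neutrophils, had the largest change of any gene tested. Its signals were 4.60 to 5.98 without LPS (median 5.25) and 8.85 to 9.81 with LPS (median 9.34). That is a change of 4.07 (SE 0.16), or 16.8-fold (limma, Benjamini-Hochberg adjusted p = 2.47e-09). Cxcl10, which attracts T cells through the receptor CXCR3, ran from 6.21 to 6.57 without LPS (median 6.46) and from 9.61 to 10.13 with it (median 9.96). Neither gene's groups came close to overlapping, and with a change of 3.50 (SE 0.09) Cxcl10 had the lowest adjusted p of all genes (limma, Benjamini-Hochberg adjusted p = 2.06e-11).

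The CC chemokines moved less. Ccl4 and Ccl5, chemokines for monocytes and T cells, changed by 0.74 and 0.69, and Ccl7 and Ccl2, which recruit monocytes through CCR2, by 0.68 and 0.49. Ccl2 was at 10.43 to 10.85 without LPS and 10.86 to 11.38 with it, so that its 2 ranges were adjacent but did not overlap. Among the other 15 chemokine genes Cxcl1, another neutrophil chemokine, was at 0.12 and Ccl3 at 0.10.

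**Figure D2:**
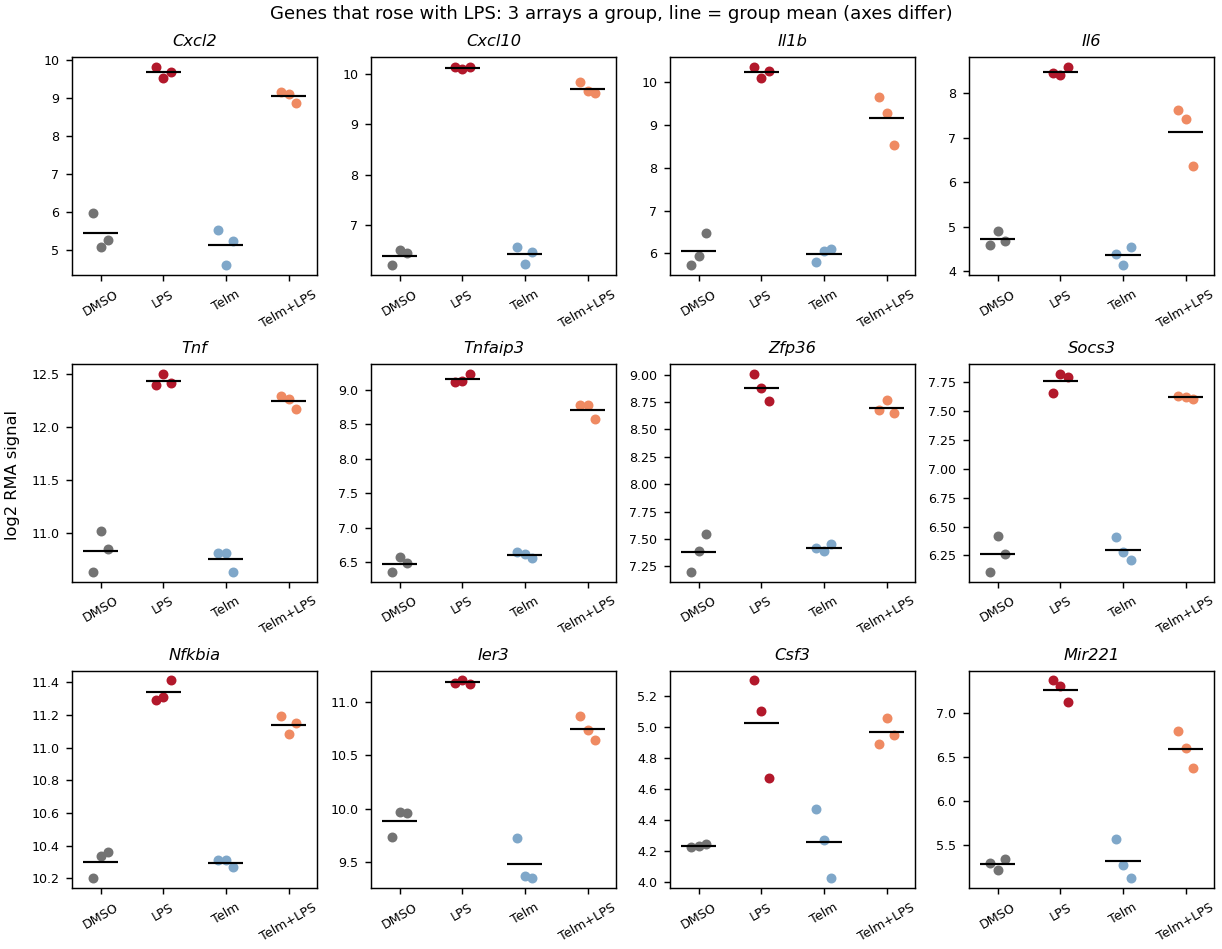
Log2 RMA signal of 12 genes that rose, with 1 point per array, 3 arrays per treatment and a line at each group mean; axes differ between panels. Both LPS groups (red and orange) lie above both groups without LPS (grey and blue) in each panel, for example 12.17 to 12.50 against 10.64 to 11.02 for Tnf.

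Some genes for receptors and for proteins of Toll-like receptor signalling passed the test, but Tlr4 and Cd14, which sense LPS, did not. Of 29 genes for LPS sensing and Toll-like receptor signalling 2 rose and 0 fell, where 0.509% of all genes rose and 0.104% fell. Tlr2, a receptor for bacterial lipoproteins, changed by 0.44 (SE 0.06) and Irak2, a kinase recruited by MyD88, by 0.36. Tlr4, the LPS receptor itself, was at -0.06 (SE 0.10) with overlapping ranges of 5.71 to 6.11 without and 5.51 to 6.20 with LPS, and Cd14 was at 0.13 (SE 0.05). Neither passed the test (limma, Benjamini-Hochberg adjusted p = 0.842 and 0.274). Among 27 cytokine and chemokine receptors 2 rose, namely Ccrl2, an atypical receptor that binds chemerin, by 1.52 (SE 0.08) and Tnfrsf1b, the second TNF receptor, by 0.40.

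Of 14 listed NF-kB subunits and inhibitors 12 were measured. Among these, 3 rose, and all 3 belong to the IkB family. Nfkbia encodes IkB alpha, which holds NF-kB in the cytoplasm, and its signals were 10.20 to 10.36 without LPS and 11.08 to 11.41 with LPS. These separate ranges gave a change of 0.94 (SE 0.05), or 1.92-fold (limma, Benjamini-Hochberg adjusted p = 9.9e-08). Nfkbiz, a nuclear IkB protein needed for Il6 transcription, changed by 1.22 and Nfkbie, for IkB epsilon, by 0.75. The subunit genes Rel, Relb and Rela were at 0.27, 0.27 and 0.08 and did not pass. Nfkb1, another subunit gene, lies on a feature with several gene symbols and was not tested as a gene.

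Tnfaip3 encodes A20, a ubiquitin-editing enzyme that ends NF-kB signalling. It went from 6.36 to 6.64 without LPS (median 6.57) to 8.58 to 9.23 with LPS (median 8.95). The change of 2.39 (SE 0.09), or 5.25-fold, was the sixth largest of all (limma, Benjamini-Hochberg adjusted p = 2.47e-09). In the same list of 16 A20 and ubiquitin regulators, the A20-binding protein gene Tnip3 changed by 0.74 and the TNF receptor adaptor gene Traf1 by 0.67, while Birc3, a ubiquitin ligase of that pathway, was at 0.30 and missed the threshold (limma, Benjamini-Hochberg adjusted p = 0.0774).

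Of 11 mRNA decay factors 2 rose. Zfp36 encodes tristetraprolin, which brings cytokine mRNAs with AU-rich elements to degradation. It gave 7.20 to 7.54 without LPS and 8.65 to 9.01 with it, a change of 1.39 (SE 0.07). Zc3h12c, of the regnase family of RNA-degrading enzymes, changed by 0.49. Among 12 SOCS and cytokine feedback genes only Socs3, an inhibitor of interleukin-6 receptor signalling, passed, at 1.40 (SE 0.06); a second, dimmer feature of Socs3 showed 0.08, and the mean of both features gave 0.74. Of 17 feedback inhibitors of MAP kinases 3 rose, all dual-specificity phosphatases. They were Dusp1 at 0.78, Dusp2 at 0.51 and Dusp5 at 0.38, while Dusp6, which acts on ERK, was at -0.30 (limma, Benjamini-Hochberg adjusted p = 0.0639).

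Of 28 immediate early factors, the transcription factors and small proteins that many stimuli induce first, 6 rose. Ier3, a stress-inducible survival gene, had signals of 9.35 to 9.97 without LPS and 10.64 to 11.20 with it. Its change was 1.28 (SE 0.07), or 2.43-fold. Junb and Jun, both AP-1 subunits, changed by 0.75 and 0.57, and the zinc finger factor genes Egr2 and Klf6 by 0.49 and 0.47, where the Egr2 call was lost in 8 settings. Atf3, a repressor of Toll-like receptor responses, changed by 0.29 (limma, Benjamini-Hochberg adjusted p = 0.0213). Fos and Egr1, the best-known members, were at 0.16 and 0.0033 and did not pass; both fall outside the naming rule and are given for contrast.

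Growth regulators gave 6 rises and 1 fall among 21. Btg2, an antiproliferative factor, went from 4.87 to 5.40 without LPS to 6.15 to 6.41 with it, a change of 1.10 (SE 0.08). Pim1, a survival kinase, changed by 0.99 (0.03 in its second, dim feature), the transcription factor gene Myc by 0.64 and the polo-like kinase gene Plk2 by 0.41. Of 29 transcription repressors and chromatin regulators 3 rose. They were Prdm1, for the repressor BLIMP-1, at 0.76, Id3, for an inhibitor of basic helix-loop-helix factors, at 0.45 and Ets2, an ETS family factor, at 0.33. The Id3 call was lost in 9 alternative settings and the Ets2 call in 12.

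Enzymes and effector proteins followed. Of 19 inflammatory enzymes and oxidase genes 4 rose. Ptgs2, for the prostaglandin-forming cyclooxygenase-2, was at 8.47 to 8.98 without LPS and 9.07 to 10.05 with it, a change of 1.02 (SE 0.11). Acod1, which makes itaconate, changed by 1.14 (SE 0.07), and Ptger4, a receptor for prostaglandin E2, by 0.49. Nos2, the inducible nitric oxide synthase, changed by 0.36 (SE 0.07), with pooled ranges of 7.54 to 7.89 and 7.86 to 8.27 that overlapped slightly (limma, Benjamini-Hochberg adjusted p = 0.0264), and this call was lost in 9 of 22 alternative settings. Nlrp3, the sensor of an interleukin-1-processing inflammasome, was the only rise among 14 inflammasome genes, at 1.05 (SE 0.08), and Casp4, for an LPS-binding caspase, was at 0.35 (limma, Benjamini-Hochberg adjusted p = 0.0575).

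Of 23 adhesion, matrix and surface molecules 6 rose. Cd69, an early activation marker of leukocytes, changed by 1.15 (SE 0.11) from 3.57 to 4.10 without LPS to 4.61 to 5.31 with LPS. The immune checkpoint ligand gene Cd274 changed by 0.73, the maturation marker Cd83 by 0.57, the integrin ligand Icam1 by 0.47 and the costimulatory receptor Cd40 by 0.37. Among 16 death and survival genes Fas, a death receptor, and Cflar, an inhibitor of caspase-8, rose by 0.73 and 0.54. Of 22 purinergic and G protein coupled receptor genes 3 rose, with Gpr84, a receptor for medium-chain fatty acids, at 0.84 (SE 0.06) and the platelet-activating factor receptor gene Ptafr at 0.72.

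Of 26 interferon-related genes 3 rose at this time, where 0.509% of all genes did so. Irf1, a transcription factor induced directly by NF-kB, went from 5.09 to 5.42 without LPS to 5.96 to 6.28 with it, a change of 0.83 (SE 0.07). The antiviral genes Rsad2 and Oasl1 changed by 0.60 and 0.29. Of 14 genes known to respond late to LPS 3 rose, and they included Slpi, for a secreted protease inhibitor, at 0.48 (SE 0.05), as well as Il6 and Nos2 already described. Nrf2 targets gave Nfe2l2 as 1 rise and Osgin1, an oxidative stress response gene, as 1 fall at -0.36 (SE 0.07) among 13, and the Osgin1 call was lost in 9 settings. Slc2a6, a sugar transporter gene of the lysosome, was the only rise among 23 genes of hypoxia and glycolysis, at 0.54.

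In all, 36 gene lists held 673 measured genes, of which 67 rose and 2 fell, and 11 lists had no call. Over all genes, 0.509% rose and 0.104% fell, but the lists were chosen with earlier results of these data known. A further 46 rises and 21 falls belonged to no list. Among these rises were Clec2d, a ligand of the inhibitory receptor NKR-P1B, at 1.13 (SE 0.09), Slfn2, a schlafen gene of immune cell quiescence, at 0.97 (SE 0.05), and Pde4b, a phosphodiesterase that degrades cyclic AMP, at 0.83 (SE 0.08). Slfn2 changed almost equally without and with the drug, by 0.97 and 0.96, and its ranges of 8.21 to 8.51 and 9.18 to 9.46 were far apart.

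Genes of general cell functions gave no calls, where 0.509% of all genes rose and 0.104% fell. At such shares, 0 calls do not set lists of this size apart from other genes. None of 28 oxidative phosphorylation, 20 mitochondrial gene expression, 21 replication and 23 G2 and mitosis genes passed the test. Their medians were -0.05, -0.09, -0.03 and -0.07, with 22, 19, 15 and 21 members below 0. The 9724 genes with a mean signal of at least 5 had a median of -0.04 themselves, and 68.8% of them were below 0. When arrays were centred on those brighter genes, the same 4 medians were -0.0075, -0.05, 0.0125 and -0.03, so that the replication list changed sign. Members below 0 then numbered 15, 17, 8 and 18, where 4767 of the 9724 brighter genes were below 0. No difference between these lists and other genes was tested. The 20 ribosomal protein genes, 16 cholesterol synthesis genes and 9 renin-angiotensin genes also had 0 calls. Only 2 of those 9 had a mean signal of at least 5.

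Some genes for small RNAs rose. Of 478 microRNA genes 4 rose (0.837%, against 0.509% of all genes) and 0 fell. MicroRNA genes on features with several gene symbols, Mir155 among them, were not tested as genes. Among those tested, Mir221 and Mir222 had the largest changes. They lie in the same orientation on the X chromosome with 504 bases between their hairpins. The mature 3′ arms, shown because both share a seed (bases 2 to 8, in capitals), are from RefSeq on build GRCm38.p6 at chrX:19146307-19146329 and chrX:19146901-19146923, minus strand.
miR-221-3p: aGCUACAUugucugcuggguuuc
miR-222-3p: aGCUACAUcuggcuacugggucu
The shared seed is GCUACAU. The array features lie on these loci and were labelled from total RNA, so they may measure the primary transcript or hairpin, and the level of the mature miRNA is not known from them. Mir221 gave 5.30, 5.21 and 5.34 in DMSO, 7.37, 7.31 and 7.12 in LPS, 5.57, 5.27 and 5.12 in telmisartan, and 6.79, 6.60 and 6.37 in telmisartan+LPS. Arrays with LPS were above all others, by 1.62 (SE 0.13) or 3.08-fold in the pooled fit (limma, Benjamini-Hochberg adjusted p = 3.7e-06). Mir222 changed by 1.10 (SE 0.13), from 4.07 to 4.86 without LPS to 5.19 to 5.78 with it. The other 2 rises were smaller, at 0.41 for Mir674 and 0.40 for Mir219a-1, neither of which shares this seed. The Mir674 call was lost in 8 settings and the Mir219a-1 call in 12, while Mir221 and Mir222 passed in all that could be run. The small nucleolar RNA gene Snora73a changed by 0.33, a call lost in 8 settings.

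Promoter sequence and gene size, which played no part in the calls, were also described. Promoter windows of 250 bases before to 50 after the transcription start (RefSeq, build GRCm38.p6) were found for 88 of 113 rises, 22 of 23 falls and 16918 of the 22180 genes. A kB-type motif, GGNNTTTCC on either strand, occurred in windows of 10 of 17 rises of at least 2-fold (58.8%), 11 of 71 smaller rises (15.5%), 1 of 22 falls (4.55%) and 1150 of all 16918 genes (6.80%). The AP-1 motif TGANTCA, on both strands, was in 23.5%, 9.86%, 9.09% and 8.39% of the same 4 sets. The TATA box TATAAA, on the forward strand, was in 29.4%, 11.3%, 9.09% and 9.24%. The cyclic AMP element TGACGTCA was in 5.88%, 2.82%, 0% and 2.64%, and the CArG box of serum response factor in 5.88%, 2.82%, 4.55% and 1.67%. A CArG box can contain TATAAA, so that 1 stretch can count under both, and no other motif contains another. The sets are small, and a match is a description of letters, not of binding. Median GC content was 52.3% in windows of the rises of at least 2-fold, 61.0% in those of smaller rises and 56.5% over all genes.

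The following stretches of 100 bases, 5′ to 3′ on the strand of the gene, are shown because they hold the kB-type motif, in capitals, in 6 of the genes that rose. They are chr5:90903767-90903866 (plus strand) for Cxcl2, chr5:92348994-92349093 (minus) for Cxcl10, chr5:30013025-30013124 (plus) for Il6, chr10:19015375-19015474 (minus) for Tnfaip3, chr12:55492772-55492871 (minus) for Nfkbia and chr17:35821528-35821627 (plus) for Ier3.
Cxcl2: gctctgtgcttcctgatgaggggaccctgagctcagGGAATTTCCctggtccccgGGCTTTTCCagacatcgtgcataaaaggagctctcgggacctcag
Cxcl10: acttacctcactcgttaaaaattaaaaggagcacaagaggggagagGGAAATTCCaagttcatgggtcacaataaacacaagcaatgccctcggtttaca
Il6: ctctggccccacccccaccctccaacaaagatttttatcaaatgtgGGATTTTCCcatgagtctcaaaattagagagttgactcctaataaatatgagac
Tnfaip3: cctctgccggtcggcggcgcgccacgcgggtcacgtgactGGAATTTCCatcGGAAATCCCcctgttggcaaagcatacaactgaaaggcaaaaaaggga
Nfkbia: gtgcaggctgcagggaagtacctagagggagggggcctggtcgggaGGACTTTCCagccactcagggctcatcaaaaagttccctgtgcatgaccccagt
Ier3: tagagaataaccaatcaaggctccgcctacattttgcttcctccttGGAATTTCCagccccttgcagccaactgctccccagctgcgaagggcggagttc
Cxcl2 and Tnfaip3 hold 2 matches each within the stretch shown, and Nfkbia holds a second one outside it. The windows of Il1b, Il1a and Tnf held TATAAA but no match to GGNNTTTCC, and those of Zfp36 and Socs3 held neither, which says only that these letters are absent from these windows. Rad52 was the fall with a match. The median genomic span of protein-coding genes was 8.05 kb over 105 rises against 15.4 kb over 16 falls and 18.7 kb over all 18964 protein-coding genes.

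**Figure D3:**
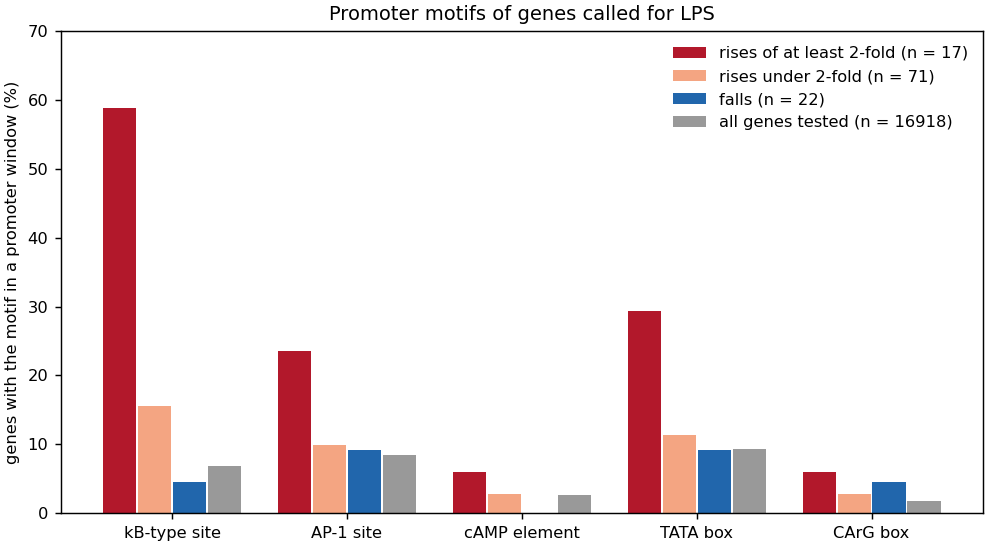
Share of genes (%) with each of 5 motifs in a promoter window of 250 bases before to 50 after the start, for 17 rises of at least 2-fold, 71 smaller rises, 22 falls and all 16918 tested genes with a window. The kB-type motif stands at 58.8% in the larger rises and at 6.80% over all genes.

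The falls were small, and 21 of the 23 belonged to no list. Vamp1, for a synaptobrevin of vesicle fusion, was at 5.83, 5.66 and 5.75 in DMSO and 6.21, 5.71 and 6.03 in telmisartan, against 5.02, 5.05 and 5.39 in LPS and 5.50, 5.43 and 5.68 in telmisartan+LPS. The LPS arrays were below their own controls in each drug state, and the pooled ranges overlapped only between 5.66 and 5.68. The change was -0.52 (SE 0.09), or 1.43-fold lower (limma, Benjamini-Hochberg adjusted p = 0.0114). Fv1, a retrovirus restriction gene of endogenous retroviral origin, gave 6.87 to 7.04 without LPS and 6.07 to 6.78 with it, a change of -0.49 (SE 0.09), and its call was lost in 8 settings. Rex2 gave 4.51 to 4.88 without and 3.95 to 4.39 with LPS, a change of -0.50 (SE 0.08), and among named genes it was the only fall that passed in all settings that could be run.

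Gadd45g, a growth arrest and DNA damage-inducible gene, was at 5.54, 5.63 and 5.59 in DMSO, 5.03, 5.04 and 4.79 in LPS, 5.47, 5.47 and 5.56 in telmisartan, and 4.89, 5.33 and 5.37 in telmisartan+LPS. Replicates 2 and 3 of telmisartan+LPS lay close to the arrays without LPS but did not overlap them. Its change was -0.47 (SE 0.09), with the call lost in 7 settings, while the related Gadd45b, at -0.07, did not pass. Bbs5, a subunit of the BBSome of cilia, changed by -0.39 (SE 0.08), a call that was lost in 12 of 22 settings.

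Other falls were smaller. Rad1 encodes a subunit of the checkpoint clamp loaded at DNA damage. It was at 7.02 to 7.21 without LPS and 6.64 to 6.92 with LPS, a change of -0.31 (SE 0.05), while a second, dim feature of Rad1 showed 0.05 and the mean of both gave -0.13 and no call. Rad52, of homologous recombination, went from 6.20 to 6.41 to 5.81 to 6.11, a change of -0.29 (SE 0.05). Ddx55 gave 6.95 to 6.98 without LPS and 6.68 to 6.83 with it. Pcgf6, of a Polycomb complex, and Dus4l, a tRNA dihydrouridine synthase gene, were at -0.25 each, and both calls were lost in 12 settings, as that of Ddx55 was in 9. Of the 23 falls 16 were protein coding and 7 were long non-coding RNA genes. That class gave 3 rises and 7 falls among 1926 (0.156% and 0.363%, against 0.509% and 0.104% of all genes).

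**Figure D4:**
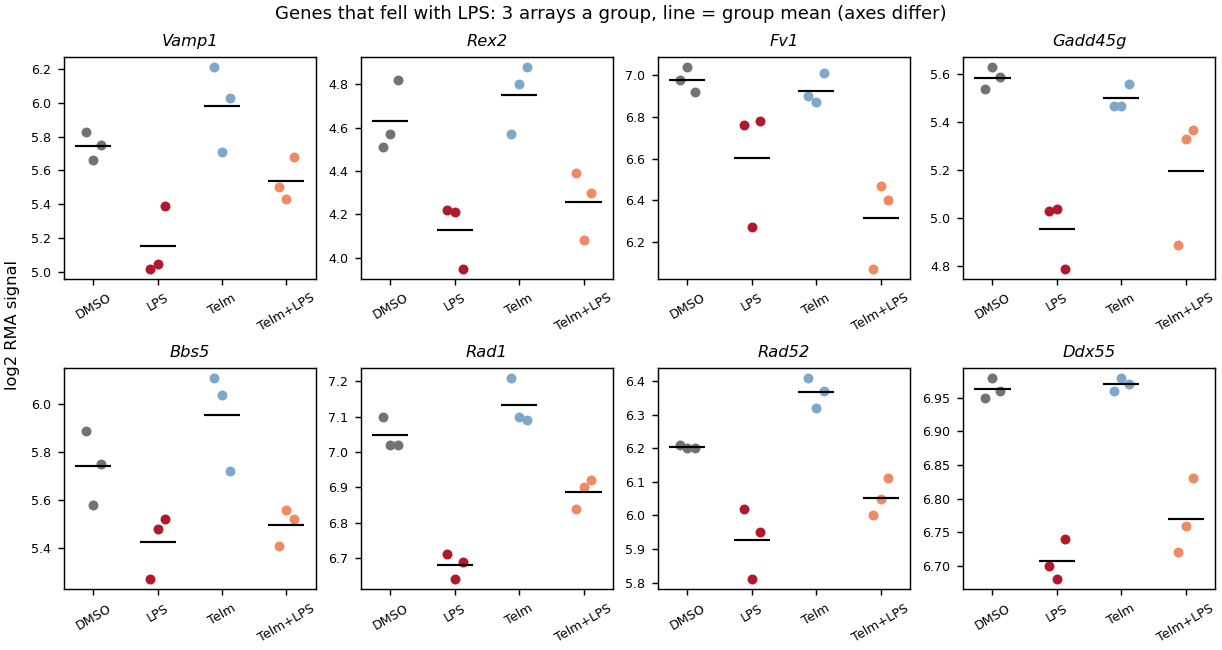
Log2 RMA signal of 8 genes that fell, with 1 point per array, 3 arrays per treatment and a line at each group mean; axes differ between panels. The LPS groups (red and orange) lie below the groups without LPS of the same drug state, for example 6.68 to 6.83 against 6.95 to 6.98 for Ddx55.

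Splitting the arrays by drug state gave 2 comparisons with no array in common. Without the drug 73 genes rose (0.329%) and 7 fell (0.0316%), and with it 33 rose (0.149%) and 2 fell (0.00902%). The rises called in both numbered 29, which is 39.7% of those without and 87.9% of those with the drug, and 0 falls were called in both. Of the 73 rises without the drug 72 were also higher with LPS in the drug-treated cells, and all 7 falls were lower, where 55.5% of all genes had the same direction in both states. The median change of those 73 rises was 0.82 without the drug, where they were called, and 0.60 with it. For the 33 rises called with the drug it was 1.26 without and 0.96 with it. The difference between these medians was not tested.

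Pooling added genes that neither state alone could call. Of the 113 pooled rises 29 were called in both states, 41 without the drug alone, 2 with the drug alone and 41 in neither, and of the 23 falls 22 were called in neither. Csf3 was the largest such rise, with 0.79 (SE 0.14) without and 0.71 (SE 0.12) with the drug. Marcks, an actin-binding substrate of protein kinase C, had 0.64 and 0.60 in the 2 states, Slpi 0.44 and 0.52, and Nupr1, a stress-induced chromatin protein gene, 0.45 and 0.48. In these 4 genes the difference between the states was smaller than its standard error. Id3 had 0.28 without and 0.61 with the drug, and Pdgfb, for a growth factor of mesenchymal cells, 0.36 and 0.43. Among the falls, Rex2 had -0.51 and -0.49, Vamp1 -0.59 and -0.45, and Osgin1 -0.47 and -0.25.

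The pooled change is an average, and the estimates of some large rises differed between the 2 states, although no difference passed its test. Il1b changed by 4.19 without and 3.17 with the drug, Il6 by 3.75 and 2.77, and Tnfaip3 by 2.68 and 2.10. Cxcl2, the largest rise, changed by 4.23 and 3.92, a difference of -0.31 (SE 0.33). Tnf changed by 1.60 and 1.48 and Ier3 by 1.29 and 1.27. In both Il1b and Il6, the lowest value with LPS was that of telmisartan+LPS replicate 3. For 88 of 113 rises and 12 of 23 falls the change was smaller with the drug, but the test of the difference passed for 0 genes (0%), with 1725 at an unadjusted p under 0.05, 26 of them pooled rises, and a lowest value of 0.187 in limma with Benjamini-Hochberg adjustment.

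**Figure D5:**
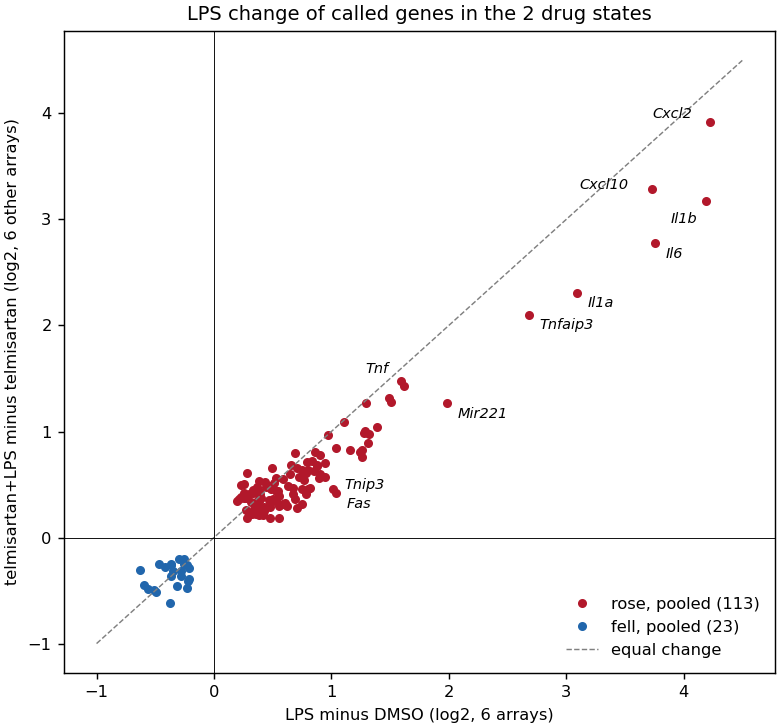
LPS change (log2) of the 113 pooled rises (red) and 23 pooled falls (blue) in cells without the drug (horizontal axis, 6 arrays) and with it (vertical axis, 6 other arrays). The dashed line marks equal change, and 88 rises lie nearer to 0 with the drug, such as Il1b at 4.19 and 3.17.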

How the data were processed

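RNA of BV2 cells was measured on 12 Affymetrix mouse gene arrays. The authors deposited log2 RMA signals, background-corrected, quantile-normalised and summarised by median polish; per the file headers this was done in Expression Console, engine 1.4.1.46. The labelling protocol mentions an older design of this array family than the headers, which were followed. Quantile normalisation makes every change relative to the array's other features, and array summaries compress large folds. No column of another sample was present (0). The number of arrays sets the precision.

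The additive model (LPS, telmisartan), the 2 fits by drug state and the interaction were run in limma 3.58.1 (R 4.3.3, statmod 1.5.0), two-sided, with eBayes and Benjamini-Hochberg adjustment over 22180 genes, calls at 0.05 and no fold minimum. The additive fit had 9 residual degrees of freedom and a median residual SD of 0.117. Scripts were tested on simulated data. Exact permutation of LPS labels was run for 10 named genes and is not used, since the absence of overlap in the naming rule fixed its outcome.

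The rule for names took the 25 largest rises and 20 largest falls clear of overlap in each drug state, the 5 smallest calls each way, the 8 largest each way called only when pooled, up to 4 members of each list, Tnf, Il1b, Il6, Nos2, Ptgs2, Tlr4 and Cd14, and the called microRNA and small nucleolar RNA genes. Predicted models and receptor families were not named. Further list members and the genes named for contrast fall outside it. The members, lists and rule were chosen with earlier results of these data known. Lists are described by counts and medians, and features with several symbols or none were tested apart.

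Alternatives were other models, variance moderation, array weights, a filter at a mean signal of 5, feature averaging, the 5-decimal series matrix, centring, left-out arrays and an adjusted p of 0.01.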

Additional observations from a re-analysis of the deposited data

Results flagged for a closer look

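Features outside the named genes also responded. Of 1820 features with several gene symbols 6 passed the test, 5 higher and 1 lower with LPS (0.330%), and of 16004 features with no symbol 24 passed, 11 higher and 13 lower (0.150%). Of these 11 rises 4 repeat all values of another feature, which leaves 7 distinct ones. Called falls of features with no symbol reached -1.53 (SE 0.25), where the largest called fall of a gene was -0.52. The weak falls described above are thus those of genes with 1 symbol alone. All these features drew attention because they carry an LPS signal in data that no comparison of genes uses. In 82 checks over 41 named genes, no single array was flagged as far from the rest of its group of 6. The checks pooled the 2 drug states and used genes named for no overlap in each state, so they cannot clear an array. Over all genes, telmisartan+LPS replicates 3 and 1 stood apart on components 2 and 3.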

How the results depend on the processing

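All 113 rises and 23 falls kept their direction, and 74 rises and 2 falls (Rex2 and the long non-coding RNA gene B130006D01Rik) passed, in each of 22 settings in which they were tested. The setting without dim genes leaves out 23 rises and 4 falls. The count of pooled rises stayed within 1.5 times 113, at 88 to 114 with 1 array left out, and that of falls did not. Falls numbered 80 with trend and robust options, 38 with array weights, 134 without dim genes, 101 with arrays centred on their median, 9 centred on brighter genes (added after seeing the data), 11 without both telmisartan+LPS replicates 1 and 3, 4 at an adjusted p of 0.01 and 8 to 40 with 1 array left out (8 to 14 without DMSO replicate 1 or 3, LPS replicate 1 or 2, telmisartan replicate 1 or 2, or telmisartan+LPS replicate 1 or 3, and 40 without LPS replicate 3). LPS without the drug gave 112 rises and 45 falls with trend and robust options, 37 falls without dim genes, 11 falls from 4 group means, and 43 to 49 rises and 1 to 23 falls with 1 array left out. LPS with the drug gave 77 rises and 17 falls with trend and robust options, 65 and 19 without dim genes, 55 rises from 4 group means, and 15 to 29 rises and 0 to 4 falls with 1 array left out. The interaction gave 1 gene with trend and robust options, 3 without dim genes and 0 to 3 with 1 array left out. Among named genes that did not pass, Agtr1a turned to -0.0033 without telmisartan+LPS replicates 1 and 3. With 1 array left out, Gabarapl1 ranged from -0.0933 to 0.0256, positive without DMSO replicate 2 (0.0107) or LPS replicate 3, and Tlr4 from -0.12 to 0.0044, positive without telmisartan+LPS replicate 2. The cause of these shifts was not tested, beyond that fewer arrays or fewer genes entered. No paired analysis was possible because the labels carry running numbers and no replicate numbers shared by groups. Signals near background limit what can be said of the 12456 genes with a mean under 5, which held those 23 rises and 4 falls.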

Other observations

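Gene families outside the lists were also counted, where 0.509% of all genes rose and 0.104% fell. The 336 zinc finger genes with a Zfp number gave 1 rise and 1 fall (0.298% each). Of these genes 61.0% were below 0, with a median of -0.04, close to that of genes with a mean signal of at least 5. The 39 histone genes gave 0 calls, with 1 higher and 4 lower at an unadjusted p under 0.05 in limma. Olfactory and vomeronasal receptor genes gave 2 rises and 1 fall among 1394 (0.143% and 0.0717%). The 470 pseudogenes gave 0 calls, with 41 higher and 18 lower at an unadjusted p under 0.05 in limma. Over all 22180 genes 1440 were higher and 1626 lower at that threshold, and over the 9724 genes with a mean signal of at least 5 these were 427 and 1366. The balance of higher and lower genes thus differed with signal level, and no difference between a family and other genes was tested.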
